A study of Mus musculus with 10 samples.

Results

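The 9 genes Rgs5, Abcc9, Cspg4, Mcam, Des, Acta2, Tagln, Myh11 and Cnn1 are genes by which pericytes and smooth muscle cells are commonly recognized. They were taken by name, with earlier results of these data known, and with every probe-set that the array's annotation gives to 1 of them alone. They make up 9 of the 12393 genes so covered and 16 probe-sets. Their array signal was compared between 5 cell populations sorted from the backskin of mice at postnatal day 4, each measured on 2 arrays. All mice carried 2 transgenes, H2BGFP under the K14 promoter, which marks epithelial nuclei, and RFP under a human Lef1 promoter fragment, and no sample came from mice without them. The populations were hair matrix (Mx, low GFP and no RFP), outer root sheath (ORS, high GFP and no RFP), dermal papilla (DP, high RFP and no GFP), melanocytes (Mc, high RFP with CD117) and the dermal fraction (DF, neither RFP nor GFP). Cells bearing CD34, CD45 or CD117 were removed from DP and DF. No antibody to a pericyte or muscle antigen was used, so DF held every remaining dermal cell that carried no fluorescence. Skins of several animals were pooled for each preparation, and the replicates were described as independent preparations.

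Pericytes and vascular smooth muscle cells, together called mural cells, wrap the endothelium of small and larger vessels respectively. Pericytes are known by regulators of G-protein and ion channel signaling (Rgs5, Abcc9) and by surface proteins (Cspg4, Mcam), and smooth muscle cells by an actin, a myosin and the proteins that bind them (Acta2, Myh11, Tagln, Cnn1). In skin, several of these contractile genes are also known from the arrector pili muscle and from the connective tissue sheath around the follicle, so the list does not mark vessels alone.

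Many smooth muscle promoters hold a CArG box, the site bound by serum response factor. Promoter sequence from RefSeq (GRCm38.p6, 250 bases before to 50 after the annotated start) was available for 7 of the 9 genes, and Tagln and Myh11 were not among them. A CArG box was taken as CC, 6 letters of which at least 5 were A or T, and GG, a form that reads as the same class on both strands. By that rule 9.98% of the 32851 windows held at least 1, and 1.63% held 1 with all 6 middle letters A or T. Of the 7 genes, Acta2 had 2 boxes, beginning 84 and 34 bases before the start, and the other 6 had none in this window. The Acta2 start used for its window lies inside the gene's outermost annotated span, so both boxes do too. Among the further genes listed below, 4 of 21 contractile genes and 2 of 11 pericyte genes with a window held a box in any of their windows. The window of Acta2 (chr19:34255324-34255623, minus strand) is printed with the boxes in capitals, beside those of Rgs5 (chr1:169655251-169655550, plus strand) and Cspg4 (chr9:56864854-56865153, plus strand), as examples of a gene at like levels in DP and ORS (Acta2), a gene low in ORS (Rgs5) and a gene as high in ORS as in DF (Cspg4).

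Acta2: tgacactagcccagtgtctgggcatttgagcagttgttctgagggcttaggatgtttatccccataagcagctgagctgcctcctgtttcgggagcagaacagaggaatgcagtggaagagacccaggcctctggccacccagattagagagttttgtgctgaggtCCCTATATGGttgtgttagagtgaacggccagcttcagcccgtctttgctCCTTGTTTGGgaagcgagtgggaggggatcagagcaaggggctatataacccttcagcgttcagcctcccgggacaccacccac

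Rgs5: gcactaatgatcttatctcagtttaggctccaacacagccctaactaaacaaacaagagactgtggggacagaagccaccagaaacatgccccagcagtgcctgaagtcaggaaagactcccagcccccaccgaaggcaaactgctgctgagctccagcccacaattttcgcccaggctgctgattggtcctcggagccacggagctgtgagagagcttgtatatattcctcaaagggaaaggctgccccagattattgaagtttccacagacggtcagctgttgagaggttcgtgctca

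Cspg4: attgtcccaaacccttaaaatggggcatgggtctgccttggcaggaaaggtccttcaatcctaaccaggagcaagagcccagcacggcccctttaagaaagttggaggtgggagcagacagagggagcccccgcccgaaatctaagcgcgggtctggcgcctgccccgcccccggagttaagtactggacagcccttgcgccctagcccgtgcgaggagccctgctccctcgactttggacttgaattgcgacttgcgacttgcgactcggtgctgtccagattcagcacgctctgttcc

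Signals are the authors' linear array values, scaled by their software to a common target on each array, and a value of 200 was used as the bound for a gene that was clearly present. The median probe-set lay between 49.9 and 90.9 on the 10 arrays, and values under it are described as low rather than as absent. Marker lists bore out the population names in the main, but melanocyte markers were also high in DP. The 8 papilla markers all reached 200 on both DP arrays and none did in DF, and their summed signal was 14139 and 15380 in DP against 819.3 and 669.9 in DF. DF was mixed. Of 11 fibroblast markers, 8 reached 200 in DF, led by Col1a2 with 11910.8 ± 379 (SD, n = 2). As many as 8 did so in DP too, and 4 in each of Mx, ORS and Mc. Dcn was highest in Mx, with a mean of 3888.5 against 1620 in DF. Of 17 endothelial markers, 8 reached 200 in DF, led by Lyve1, while only Eng did so in DP and none did in ORS. Of the blood cell markers only Alas2, the erythroid heme synthesis enzyme, reached 200, at 3461.6 and 4266.2 in DF and at most 7.8 elsewhere. None of 15 skeletal muscle markers reached 200 in any population. The DF arrays differed in other cells: the melanocyte markers summed to 12845.4 and 3863.2, and the epithelial markers to 1715.8 and 6295.7, on replicates 1 and 2. In DP the melanocyte markers summed to 24654.4 and 15130.4, against 31040.6 and 32932.7 in Mc. Of these 7 markers, 6 reached 200 on both DP arrays. What part these cells had in the levels of the 9 genes was not tested. In sorted populations such as these, fewer cells of a type and less RNA per cell cannot be told apart.

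In DF 6 of the 9 genes (Rgs5, Cspg4, Mcam, Acta2, Tagln and Myh11) had a probe-set at 200 or more on both arrays, and for Abcc9, Cnn1 and Des at most 1 array reached it. Differences between populations were tested with limma on log2(signal + 50) over all probe-sets that passed this bound in at least 1 population, with p-values adjusted over those probe-sets. Abcc9, Cnn1 and Des thus entered only a second fit without the bound. In the second fit, which covers all 9 genes, the signal was higher in DF than in DP for 8 of 9, where 6.32% of all genes were higher, and higher in DF than in ORS for 7 of 9, where 14.6% were. Against Mx it was higher for 9 of 9 (all genes, 24.2%), and against Mc for 8 of 9 (all genes, 16.7%). These comparisons share the DF arrays and are not independent of one another. The 9 genes were also chosen with earlier results of these data known, so the counts are a description. The exceptions were Cspg4 in the comparison with ORS, and Des, by the probe-set with the higher mean, against DP, ORS and Mc. Against Mx that Des probe-set had means of 80.4 in DF and 42.6 in Mx, with an adjusted p of 0.044. Its Mx signals were under the array median.

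**Figure D1:**
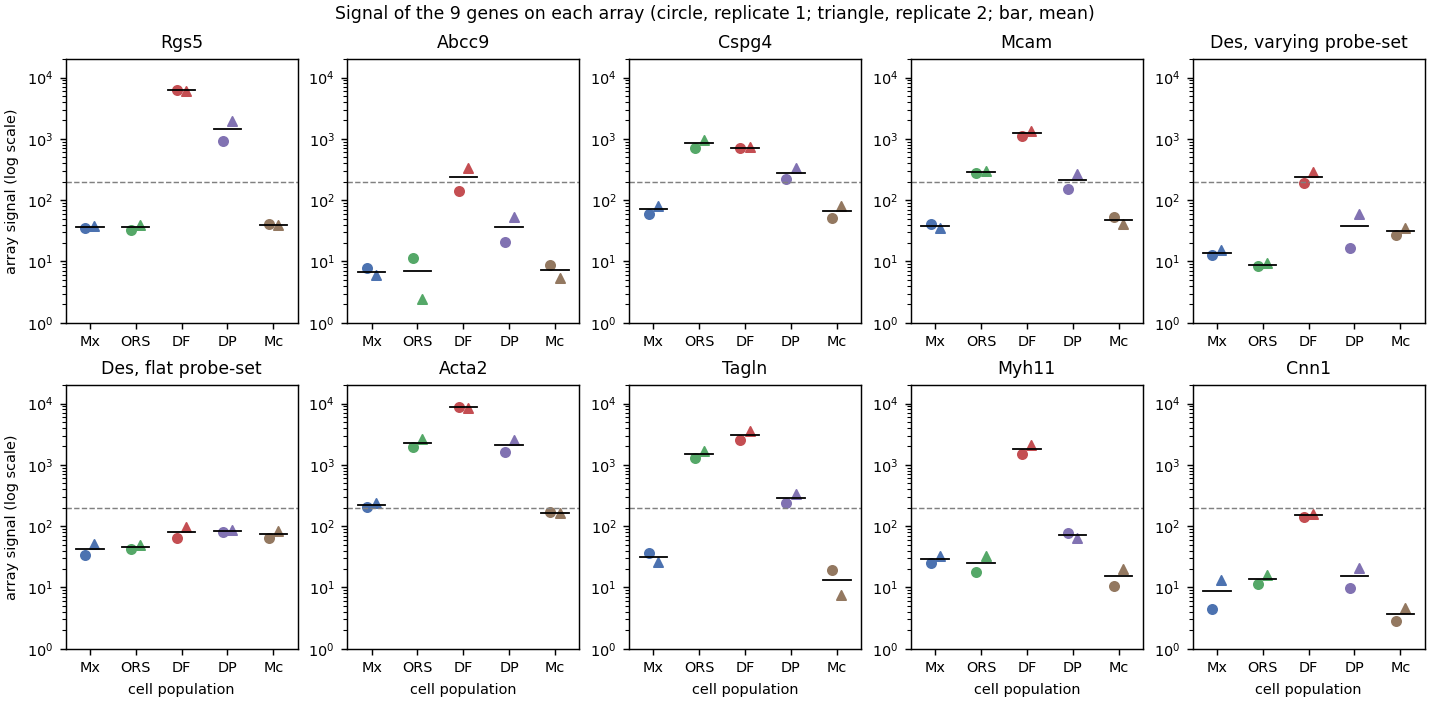
Array signal (log scale) of the 9 genes in the 5 cell populations, with a circle for replicate 1, a triangle for replicate 2, a bar for their mean and a dashed line at 200; each gene is shown by its probe-set of highest mean, and Des by both of its probe-sets. DF is the highest population for Rgs5, Abcc9, Mcam, Acta2, Tagln, Myh11, Cnn1 and the varying Des probe-set, while Cspg4 is as high in ORS and the flat Des probe-set stays under 100 throughout.

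Rgs5, a regulator of G-protein signaling used as a pericyte marker (chromosome 1, 169655501 to 169695813, GRCm38.p6, as for all positions here), read 6184.0 and 6114.2 in DF by probe-set 1417466_at. In DP it read 933.6 and 1982.7, and in Mx, ORS and Mc all 6 arrays lay between 32.2 and 40.8. The 3 levels were well apart: both DF arrays stood above both DP arrays, and both DP arrays above all the others, which were under their array medians. The log2 difference of DF over DP was 2.13 ± 0.27 (SE), or 4.38-fold, with an adjusted p of 9.2e-05, and that of DF over ORS was 6.17 ± 0.27, with an adjusted p of 9.1e-09. Because ORS was under the array median, the size of the latter rests on the pseudocount, and with a pseudocount of 1 it was 7.39. Its other 3 probe-sets gave the same order with log2 differences of DF over DP of 2.29, 2.41 and 3.27. The DF replicates differed more by some of them, since probe-set 1420941_at read 1410.0 and 2689.5 in DF against 202.2 and 508.7 in DP.

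Abcc9, the sulfonylurea receptor subunit of the potassium channel of vascular muscle (chromosome 6, 142587862 to 142702766), was much dimmer. It read 140.0 and 330.4 in DF, 20.7 and 53.0 in DP, and between 2.4 and 11.4 on the 6 arrays of Mx, ORS and Mc. Only the DF arrays were above their array medians, and both stood above every other array. Without the bound on signal, the log2 difference of DF over DP was 1.66 ± 0.31, with an adjusted p of 0.0159, and that of DF over ORS was 2.25, with an adjusted p of 0.0021.

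Cspg4, the NG2 proteoglycan of the pericyte surface (chromosome 9, 56865104 to 56899870), had another distribution. By probe-set 1450944_at it read 710.9 and 726.5 in DF, 716.5 and 973.1 in ORS, and 218.1 and 332.4 in DP. Mx and Mc lay between 52.1 and 81.1. The ranges of DF and ORS overlapped, and DP was lower than both on either array. The log2 difference of DF over ORS was -0.20, with a 95% confidence interval from -0.70 to 0.29 and an adjusted p of 0.526. DF was above DP by 1.26 ± 0.23 on the log2 scale, or 2.40-fold, with an adjusted p of 0.0016. The second probe-set, 1423341_at, read 374.1 and 421.1 in DF and 341.2 and 391.8 in ORS, and gave a log2 difference of 0.10, with an adjusted p of 0.693.

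Mcam, the adhesion molecule CD146 of mural and endothelial cells (chromosome 9, 44134658 to 44142727), read 1133.3 and 1363.3 in DF. It read 276.3 and 299.1 in ORS, 153.3 and 268.2 in DP, and 35.3 to 54.0 in Mx and Mc. DF was clear of all other populations, and the highest DP array lay just under the lower ORS array. The log2 differences were 2.35 ± 0.22 for DF over DP, with an adjusted p of 7.7e-06, and 1.94 ± 0.22 for DF over ORS, with an adjusted p of 1.6e-05. Between DP and ORS the log2 difference was -0.41, with a 95% confidence interval from -0.89 to 0.07 and an adjusted p of 0.16.

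Des encodes desmin, the intermediate filament of muscle that is also found in pericytes (chromosome 1, 75360292 to 75368579), and its 2 probe-sets disagreed. Probe-set 1426731_at read 191.3 and 289.1 in DF, 16.3 and 58.6 in DP, 27.1 and 35.5 in Mc, and 8.3 to 15.1 in Mx and ORS. Probe-set 1426732_at, which had the higher mean and was the one counted, read 64.9 and 95.9 in DF, 79.4 and 88.0 in DP, 64.9 and 83.3 in Mc, and 34.1 to 51.1 in Mx and ORS. Only the first separated DF from the other populations. Without the bound its log2 difference of DF over DP was 1.75 ± 0.24, with an adjusted p of 0.0039, where the second gave -0.05, with an adjusted p of 0.928.

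Among the contractile genes Acta2, the smooth muscle alpha actin (chromosome 19, 34240336 to 34255585), was bright in 3 populations. By probe-set 1416454_s_at it read 8747.7 and 8535.7 in DF, 1937.9 and 2613.7 in ORS, and 1592.5 and 2576.4 in DP. Mx read 204.8 and 235.6, and Mc 169.8 and 162.6. DF stood clear of the rest, and the ranges of ORS and DP overlapped. DF exceeded DP by 2.07 ± 0.23 on the log2 scale, with an adjusted p of 3.6e-05, and ORS by 1.92 ± 0.23, with an adjusted p of 2.9e-05. DP over ORS was -0.15, with a 95% confidence interval from -0.65 to 0.35 and an adjusted p of 0.641. A second Acta2 probe-set, 1456658_at, was under the array median on every array and reached at most 71.6.

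Tagln, the actin-binding protein transgelin (chromosome 9, 45929628 to 45936058), read 2555.5 and 3514.9 in DF. It read 1292.6 and 1665.6 in ORS, 234.5 and 334.2 in DP, and 7.4 to 36.8 in Mx and Mc. The populations thus fell in the order DF, ORS and DP with no overlap between them. DF over DP was 3.20 ± 0.23 on the log2 scale, or 9.22-fold, with an adjusted p of 7.5e-07. DF over ORS was 1.01 ± 0.23, or 2.01-fold, with an adjusted p of 0.0041, and over 19 alternative settings and left-out arrays this adjusted p ran from 0.0032 to 0.0736. It missed 0.05 with a pseudocount of 1 (0.0736), without ORS replicate 1 (0.0524) and without DF replicate 2 (0.0512).

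Myh11, the smooth muscle myosin heavy chain (chromosome 16, 14194527 to 14292188), was high in DF alone. It read 1508.9 and 2091.8 in DF and 76.9 and 65.0 in DP by probe-set 1448962_at, and 10.6 to 32.7 in Mx, ORS and Mc. Outside DF every array was under its median. The log2 difference of DF over DP was 3.92 ± 0.20, with an adjusted p of 6.0e-08, and that of DF over ORS was 4.61, with an adjusted p of 9.1e-09. Both sizes rest on the pseudocount, and with a pseudocount of 1 they were 4.63 and 6.15. The second probe-set, 1418122_at, read 63.4 and 66.7 in DF and no more than 5.8 elsewhere. Cnn1, the actin-binding protein calponin (chromosome 9, 22099221 to 22109221), read 141.3 and 158.8 in DF, 9.8 and 20.4 in DP, 11.2 and 16.2 in ORS, and 2.8 to 13.3 in Mx and Mc. Without the bound its log2 difference of DF over DP was 1.62 ± 0.12, with an adjusted p of 0.00032, and that of DF over ORS was 1.65, with an adjusted p of 0.00012.

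With the bound on signal, all 6 genes that passed it were higher in DF than in DP, where 11.7% of the genes tested were higher and 7.77% lower. The median log2 difference was 2.24 for these 6 genes and 0.03 for all 5253 genes tested. In DF over ORS 5 were higher and none lower, where 20.3% and 15% of the genes tested were. The 6 genes were also higher in DF than in Mx (all genes tested, 32.1%) and than in Mc (25.3%), with log2 differences over Mx from 2.68 for Cspg4 to 6.16 for Rgs5. Since each of these genes passed the bound in DF, the counts are a description.

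The DP signal as a share of the DF signal differed between the genes. Myh11 had 3.94% of its DF mean in DP, with the 4 pairs of a DP and a DF array giving 3.11% to 5.10%. Tagln had 9.37% (6.67% to 13.1%) and Cnn1 10.1% (6.17% to 14.4%). The DP signals of Myh11 and Cnn1 were under the array median, so these shares are not ranked. Mcam had 16.9% (11.2% to 23.7%), Rgs5 23.7% (15.1% to 32.4%), Acta2 24.1% (18.2% to 30.2%) and Cspg4 38.3% (30.0% to 46.8%). Abcc9 had 15.7% and the varying Des probe-set 15.6%, both with DP arrays under the array median, while the flat Des probe-set had 104%. Among the genes clearly present in DP, the range of Tagln did not overlap those of Acta2 or Cspg4. The other 3 Rgs5 probe-sets gave 10.1%, 15.6% and 17.3%, with ranges that overlapped that of Tagln. The median over the 9 genes was 16.9% with Des by its flat probe-set and 15.7% with Des by the varying one, and over all genes tested it was 97.3%.

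In ORS the shares were divided otherwise. Cspg4 had 118% of its DF mean (98.6% to 137%), Tagln 48.7% (36.8% to 65.2%), Acta2 26.3% (22.2% to 30.6%) and Mcam 23.0% (20.3% to 26.4%). Rgs5 had 0.585% (0.521% to 0.649%), Myh11 1.40%, Abcc9 2.93%, the varying Des probe-set 3.68%, the flat one 56.5% and Cnn1 9.13%, all from ORS signals under the array median. By the bound of 200, 4 of the 9 genes were clearly present in ORS. They were the surface proteins Cspg4 and Mcam and the contractile genes Acta2 and Tagln. The other 5 were low there. The median over the 9 genes was 23.0% with Des by its flat probe-set and 9.13% with Des by the varying one, against 100.7% over all genes tested.

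**Figure D2:**
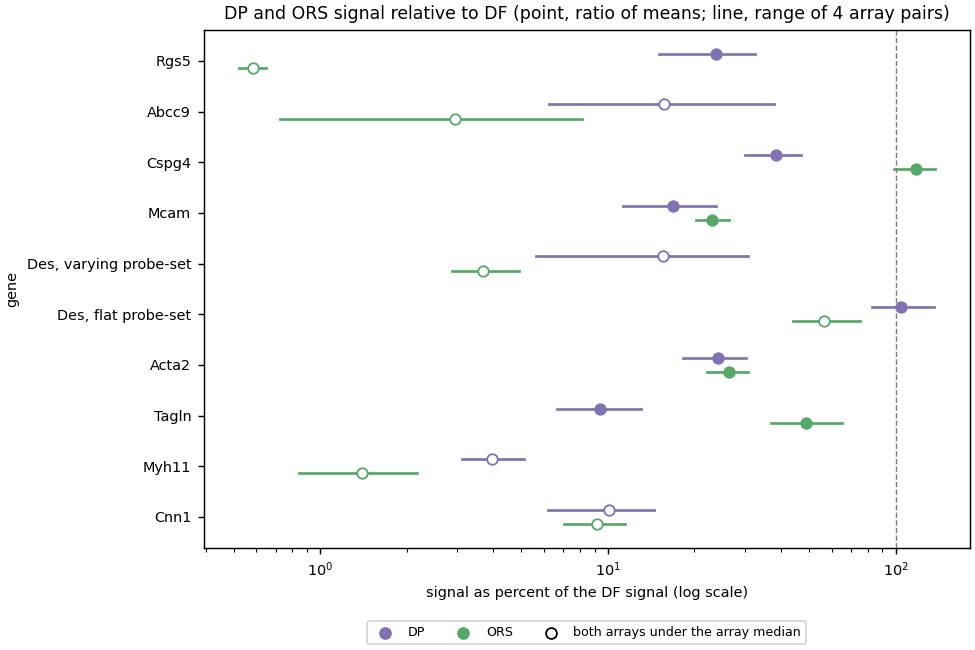
Mean signal in DP and in ORS as a percentage of the mean signal in DF (log scale) for each gene, with lines spanning the 4 pairs of single arrays; open points mark populations in which both arrays were under the array median, and the dashed line is equality with DF. Tagln lies at 9.37% in DP and 48.7% in ORS, Rgs5 at 23.7% in DP and 0.585% in ORS, and Cspg4 lies near or above 100% only in ORS.

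DP and ORS were compared directly. Of the 6 genes that passed the bound, 2 were higher in DP (21.1% of the genes tested were) and 2 were lower (20%). Rgs5 was higher in DP by 4.04 ± 0.27 on the log2 scale, with an adjusted p of 1.7e-07, a difference that ran from 3.52 to 5.21 over 19 alternatives. Tagln was lower in DP, at 234.5 and 334.2 against 1292.6 and 1665.6, by -2.20 on the log2 scale with an adjusted p of 6.8e-06. Cspg4 was lower in DP by -1.47 on the log2 scale, with an adjusted p of 0.00022. Myh11 was higher in DP by 0.69, with an adjusted p of 0.0168, but at signals under the array medians in both populations. Over 19 alternatives the adjusted p of Myh11 ran from 0.0048 to 0.137, and it missed 0.05 without DP replicate 1 (0.101), without ORS replicate 1 (0.137) and with quantile normalization (0.0605). Mcam, not different in the fit of all arrays, was lower in DP without DP replicate 2 (-0.73, adjusted p of 0.0361, in a range over alternatives from 0.0361 to 0.815).

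Between the 2 epithelial populations, ORS exceeded Mx for 4 of the 6 genes that passed the bound (all genes tested, 15.5%). Without the bound it did so for 4 of 9 (all genes, 7.15%). These 4 were the genes present in ORS by the bound, so the count is a description. The log2 differences were 4.23 for Tagln (adjusted p of 6.4e-07), 3.09 for Acta2 (2.6e-06), 2.88 for Cspg4 (3.5e-06) and 1.94 for Mcam (4.1e-05). Rgs5 and Myh11 gave -0.02 and -0.07, with adjusted p-values of 0.979 and 0.852. In Mx and Mc none of the 9 genes but Acta2 reached 200 on any array, and Acta2 did so in Mx alone, at 204.8 and 235.6. DP exceeded Mx for 6 of the 6 genes that passed the bound (all genes tested, 34.4%) and Mc for 6 of 6 (20.7%). Over Mx the log2 differences of these 6 ran from 0.62 for Myh11 to 4.02 for Rgs5. Without the bound DP exceeded Mx for 7 of 9 (all genes, 3153 of 12393) and Mc for 6 of 9 (1615 of 12393). The Myh11 difference over Mx had an adjusted p of 0.0207, which rose above 0.05 without DP replicate 1 (0.109), without DP replicate 2 (0.0526), without Mx replicate 1 (0.0792), with quantile normalization (0.219) and with the chip lot as a term (0.0548). Over Mc it missed 0.05 without Mc replicate 1 (0.0502).

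The 2 DP arrays differed in these genes. On log2(signal + 50), 8 of the 9 genes were higher on DP replicate 2, with a median difference of 0.51, where the median of all genes tested was 0.04 and their 10th and 90th percentiles were -0.27 and 0.37. Rgs5 differed most, by 1.05, followed by Acta2 with 0.68 and Mcam with 0.65, and Myh11 alone was lower, by -0.14. A list of 15 other pericyte genes on the array moved with them, with 12 of 15 higher on replicate 2 and a median of 0.44. The endothelial markers had a median of -0.04 and the 7 melanocyte markers were all lower, with a median of -0.73. In DF 7 of the 9 genes were higher on replicate 2, with a median of 0.26, against 0.03 for all genes tested. There the other pericyte genes had a median of 0.49, the endothelial markers -0.27, the melanocyte markers -1.57 and the epithelial markers 1.19. With 1 pair of arrays in each population these values describe 2 arrays, and their part in the differences between populations was not tested. The arrays came from 2 chip lots, which coincided with the replicate number in all populations but Mx. In DP and DF a difference between preparations thus cannot be told apart from one between lots. Within the lots the DP share of DF was 15.1% and 32.4% for Rgs5, 18.2% and 30.2% for Acta2, 30.7% and 45.8% for Cspg4, and 9.18% and 9.51% for Tagln. The shares in ORS within the lots were 50.6% and 47.4% for Tagln and 100.8% and 133.9% for Cspg4.

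**Figure D3:**
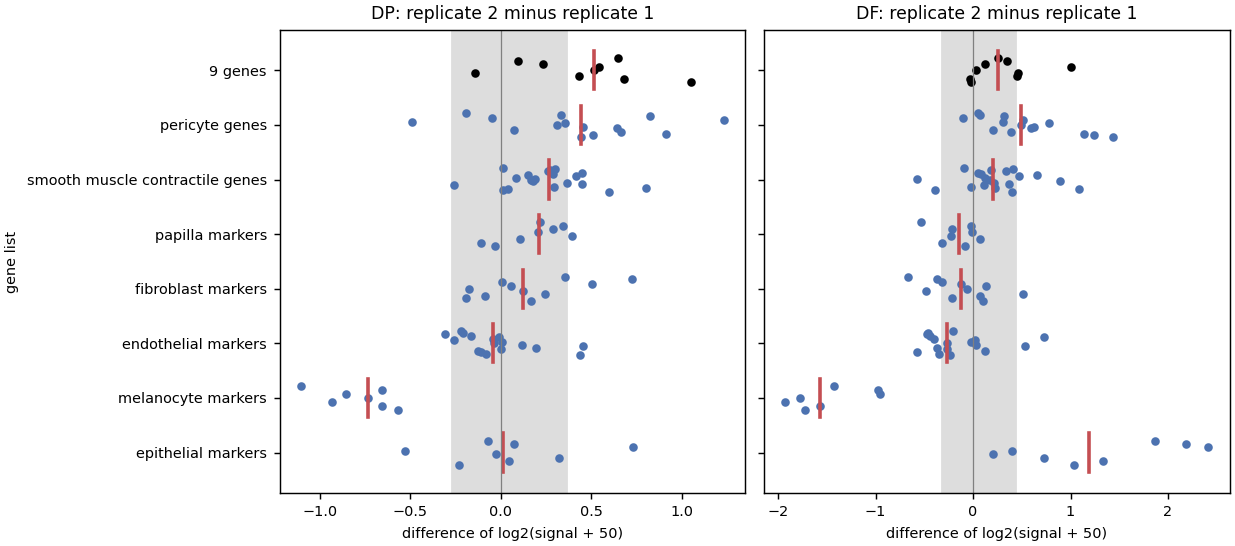
Replicate 2 minus replicate 1 on log2(signal + 50) for the genes of each list in DP (left) and DF (right), with separate horizontal ranges; points are genes, red bars list medians, and the grey band the 10th to 90th percentile of all genes tested. In DP 8 of the 9 genes lie above 0, with a median of 0.51, and the melanocyte markers all lie below it; in DF the melanocyte and epithelial markers lie furthest apart, at medians of -1.57 and 1.19.

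The other genes of the same cells were read from lists that hold none of the 9. These lists were also chosen with earlier results of these data known. Of 18 further pericyte genes, 15 were on the array and 10 passed the bound, of which 7 were higher in DF than in DP (all genes tested, 11.7%), 1 was lower (7.77%) and 2 did not pass the test. Their median log2 difference was 1.52. Over ORS 9 of the 10 were higher (20.3%) and none lower, with a median of 3.03. All 10 reached 200 on both DF arrays, so the counts with the bound are a description. Without the bound 9 of 15 were higher over DP (all genes, 6.32%), and the median was 1.04. Over ORS 13 of 15 were (14.6%), and the median was 2.335. Kcnj8, the channel subunit that pairs with Abcc9, read 429.7 and 1004.8 in DF, 89.7 and 212.7 in DP, and 5.3 and 10.1 in ORS. Notch3, the Notch receptor of mural cells, read 1746.4 and 4197.4 in DF, 702.6 and 1021.3 in DP, and 261.3 and 307.1 in ORS. The DF over DP differences of Kcnj8 and Notch3 were 1.89 and 1.62 on the log2 scale, with adjusted p-values of 0.0014 and 0.0056. Vtn, encoding vitronectin, and Rgs4, another regulator of G-protein signaling, were higher in DF than in DP by 1.83 and 1.82.

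Not all pericyte genes had this order. Ebf1, a transcription factor of pericytes and other mesenchymal cells, was the one that was lower in DF than in DP, at 370.2 and 470.6 against 1398.1 and 982.1, with a log2 difference of -1.39 and an adjusted p of 0.00029. Pdgfrb, the platelet-derived growth factor receptor of mural cells and also of fibroblasts, read 882.7 and 2467.3 in DF and 759.7 and 1049.6 in DP, a log2 difference of 0.70 with an adjusted p of 0.198. Steap4, a metalloreductase, read 280.6 and 518.9 in DF, 324 and 427.4 in DP and 480.4 and 516.8 in ORS. In Mx it read 40.3 and 85.7, and ORS over Mx was 2.31 on the log2 scale with an adjusted p of 4.9e-05. Of the 10 pericyte genes that passed the bound, it was the 1 higher in ORS than in Mx (all genes tested, 15.5%). Another 1 of the 10 was lower (all genes tested, 223 of 5253). Ebf1, Pdgfrb and Steap4 were chosen after their values were seen.

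Of 24 further contractile genes, 20 were on the array and 15 passed the bound. All 15 reached 200 on both DF arrays, so the counts over these 15 are a description. In DF over DP 14 of 15 were higher (all genes tested, 11.7%) and none lower, with a median of 1.49. Without the bound 13 of 20 were higher (all genes, 6.32%), and the median was 1.34. In DF over ORS 9 were higher (20.3%), 1 was lower (15%) and 5 did not pass the test, with a median of 0.90. In ORS over Mx 9 of 15 were higher (15.5%) and none lower, and without the bound 9 of 20 were, where 7.15% of all genes were higher. Myl9, the regulatory light chain of smooth muscle myosin, read 3610.7 and 4220.5 in DF, 1101.6 and 1114.1 in ORS, 693.5 and 1244.4 in DP and no more than 37.5 in Mx and Mc, so that it was shared with ORS as Acta2 and Tagln were. Mylk, the kinase of that light chain, read 4225.8 and 4157.4 in DF and 766.6 and 949.6 in DP, but 29.8 and 81.1 in ORS, with a log2 difference of DF over ORS of 5.37 and an adjusted p of 8.1e-09. Itga7, a laminin-binding integrin of muscle, was higher in DF than in DP by 2.28, and Mustn1, a small muscle protein, by 1.91. Smtn, the actin-associated protein smoothelin, was the gene that was lower in DF than in ORS, at 398.9 and 293 against 447.1 and 739.1, with an adjusted p of 0.0486 that became 0.1 without the bound, and was also chosen after its values were seen.

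**Figure D4:**
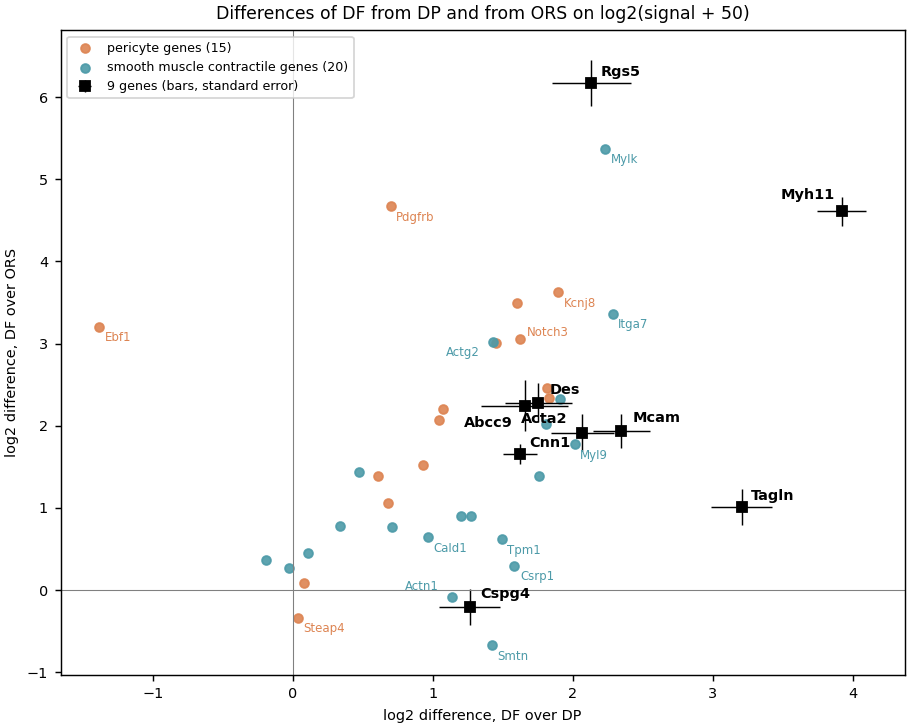
Log2 difference of DF over DP (horizontal) and of DF over ORS (vertical) from the fit without the bound on signal, for the 9 genes (squares with standard errors; Des by its varying probe-set) and for the further pericyte and contractile genes (dots). Both axes share the DF arrays, so the position along the diagonal is not evidence of a relation; Tagln and Cspg4 lie low on the vertical axis at 1.01 and -0.20, and Rgs5 lies high at 6.17.

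The 8 genes whose log2 signal over the 10 arrays was most like the mean standardized profile of the 6 genes that passed the bound were Cryab, Olfml2b, Cavin3, Cav1, Thy1, Postn, Crip1 and Flna, with Pearson r from 0.979 for Flna to 0.991 for Cryab among 5253 genes. The arrays are pairs from 5 populations, so that r is a description over 10 arrays that share populations and carries no p. The caveolar gene Cav1, for example, had mean signals of 3917.4 ± 247 in DF, 786.5 ± 40.4 in ORS, 698.9 ± 201 in DP and 135.3 ± 10.7 in Mx (SD, n = 2). Postn, which encodes the matrix protein periostin, had 4860 ± 268 in DF, 1359 ± 375 in ORS and 1004 ± 373 in DP. Of the 6 genes themselves, Mcam was nearest to the profile (r = 0.994) and Rgs5 farthest from it (r = 0.835). Each of the 6 is part of that profile, so their r cannot be set beside those of the 8.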

How the data were processed

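RNA of 5 sorted cell populations was hybridized to Affymetrix MOE430A arrays, 2 per population. The authors deposited 1 signal per probe-set and array, a linear intensity from MAS 5.0 scaled to a target of 500, and the same intensity values are in the series table used here. The depth of an array is fixed by its design, and 2 arrays a population limit the precision. Of 22690 probe-sets, 64 controls were left out, and 20380 of the others had 1 gene in the platform annotation, 691 several and 1555 none. Signals were taken as log2(signal + 50), and limma (version 3.58.1, R 4.3.3) with eBayes was fitted to all 10 arrays over the 8054 probe-sets at 200 or more on both arrays of at least 1 population, with Benjamini-Hochberg adjustment within each comparison. Folds are on this scale and understate changes of dim genes. A gene was counted by its probe-set of highest mean. Shares of DF were ratios of mean signals. Tables and plots used Python 3.11.15 and pandas 2.3.3. The fit was tested on simulated data. Named genes were the 9 with all probe-sets, up to 4 of each further list with the largest difference of DF over DP, the members of each marker list with the highest mean in DF and in DP, and the 8 nearest profiles. Lists of pericyte, contractile, receptor and regulator genes and markers of endothelial, skeletal muscle, fibroblast, Schwann, melanocyte, blood, epithelial and papilla cells were used. The genes and lists were chosen with earlier results of these data known. Alternatives were other pseudocounts, filters, normalizations, a background subtraction, a trend, the chip lot, the replicate number and each array left out.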

Additional observations from a re-analysis of the deposited data

How the results depend on the processing

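In DF over DP and DF over ORS, 240 values were recomputed for single genes, and 236 were counted as unchanged. For the 6 genes tested this meant the same direction and the same side of the threshold. For Abcc9, Cnn1 and Des, which had no test in the fit as reported, it meant a value within the spread of the replicates. Many of the 240 differences could not move. Another filter, a block, a trend or an array left out of another population changes only the test. Among the other 4, Tagln in DF over ORS missed 0.05 with a pseudocount of 1 (1.03). It also did so without ORS replicate 1 (0.83) and without DF replicate 2 (0.78). Cspg4 in DF over ORS reversed without ORS replicate 2 (0.0041), in a range from -0.41 to 0.0041 over the left-out arrays. Calls in the comparisons of DP also changed, as given with those results. For Myh11 they did so under 3 alternatives against ORS, 5 against Mx and 1 against Mc, and for Mcam under 1 against ORS. Counts and shares were judged with a wide tolerance, by which 9 genes in DF over Mx without the bound stayed near the 6 with it. Many of their alternatives left out an array of a population outside the comparison. Of the counts and shares, 188 stayed near their values and 6 moved: the genes higher in DP over ORS numbered 2 in the fit as reported and 1 with quantile normalization, without ORS replicate 1 and without DP replicate 1; the median share of DF was 6.75% in DP and 0% in ORS with the array median subtracted first, and 7.61% in ORS over all probe-sets of the 9 genes. With 1 array left out at a time, counts of genes called ran from 6 to 7 for DF over DP, over Mx and over Mc, from 4 to 6 for DF over ORS, from 5 to 7 for DP over Mx, from 5 to 6 for DP over Mc, from 1 to 3 for DP over ORS, from 2 to 3 for the genes lower in DP than ORS, and from 4 to 4 for ORS over Mx, and the median shares from 12.3% to 23.6% in DP and from 21.1% to 25.4% in ORS; a population left with 1 array was assumed to vary like the others. Rescaling the arrays to a common trimmed mean moved the median of all genes by -0.19 on the log2 scale in DF over Mx and over Mc and by -0.07 in DF over DP. The replicate numbers are not stated to mark a shared preparation, and deviations of same-numbered arrays correlated from -0.05 to 0.34 over 10 pairs of populations, 5 of them over 0.1, so they were not taken to pair samples. With the replicate number as a block, 6 genes were called in DF over DP, 5 in DF over ORS and 4 in ORS over Mx, and no count changed. Signals under the array median, such as those of Abcc9, Cnn1 and Des outside DF, give little measure of a fold.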

Other observations

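Genes by which smooth muscle receives vascular signals were also read. Of 13 receptor and signaling genes listed, 9 were on the array and 5 passed the bound on signal, of which 4 were higher in DF than in DP (all genes tested, 11.7%), 4 higher than in ORS (20.3%), and none higher in ORS than in Mx (15.5%). All 5 reached 200 on both DF arrays, so the counts with the bound are a description. Without the bound 5 of 9 were higher over DP (all genes, 6.32%) and 7 of 9 over ORS (14.6%). Gucy1a1 and Gucy1b1, the subunits of the guanylate cyclase that responds to nitric oxide, exceeded DP by 2.07 and 1.81 on the log2 scale; Gucy1a1 read 611 and 683.8 in DF, 97.7 and 135.7 in DP, and 32.4 and 43.3 in ORS. S1pr3, a sphingosine-1-phosphate receptor, was higher in DF than in DP by 1.65. Ednrb, the endothelin receptor that melanocytes also use, was higher by 1.45, at 1975.9 and 1469.3 in DF and 831.6 and 416.1 in DP, but it read 1804.2 and 2581.7 in Mc, and the melanocyte markers summed to 12845.4 and 3863.2 on the DF arrays; their part in the Ednrb level was not tested.

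Of 14 regulators of smooth muscle, all on the array, 9 passed the bound. Of these 9, 4 were higher and 1 was lower in DF than in DP (all genes tested, 11.7% and 7.77%). Foxc2 passed the bound through DF alone and Hey1 through DP alone, so the counts with the bound are a description. Without the bound only 2 of 14 were higher (all genes, 6.32%). Foxc2, a forkhead factor, read 207.1 and 200.7 in DF and at most 34.2 elsewhere. Tgfb1i1, a focal adhesion protein, and Klf4, a factor that represses contractile genes, were higher in DF than in DP by 1.30 and 1.13. Hey1, a target of Notch, was lower in DF, at 186.9 and 127.9 against 416.1 and 302.5 in DP, with a log2 difference of -0.98 and an adjusted p of 0.0047.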
